A study of Eisenia fetida with 15 samples.

Results

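Collagens and other extracellular matrix genes of the compost earthworm *Eisenia fetida* were followed through 15 libraries of a soil test with lindane, an organochlorine insecticide. They were taken as the unigenes (contigs of a de novo assembly) whose best protein match carries a name with collagen, laminin, fibronectin, fibrillin, nidogen, perlecan, SPARC, tenascin, matrilin, hemicentin, integrin or matrix metalloproteinase, with collagenases and lectins left out. The rule found 133 of 241846 unigenes. They bear 70 distinct names and match 99 distinct proteins, so several contigs may be pieces or copies of 1 gene and are read as uncertain. The best match was an oyster protein for 53 members and an annelid protein for 13. The contigs were 404 to 9781 bases long, with 951 bases as the median. By name the set held 44 collagens (9 fibrillar, 13 of type VI, 12 of type IV and 10 others), 14 hemicentins, 12 matrix metalloproteinases, 10 integrins, 9 laminins, 9 fibrillins, 4 tenascins, 3 matrilins and 1 integrin-linked kinase. The pattern also took in names that are not matrix proteins in the strict sense. These are 12 disintegrin proteases (ADAM and ADAMTS), 7 integrin beta-like 1 proteins, 6 names that only mention a fibronectin, laminin or nidogen domain, and 2 collagen-binding proteins. No member was named SPARC or perlecan, and nidogen occurred in 1 domain name alone.

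In animals, fibrillar collagens form the load-bearing cables of connective tissue, while type IV collagen and laminin build the thin basement membranes under epithelia and around muscle. Earthworms are covered by a cuticle of secreted collagen fibres, and a muscular body wall and gut lie on extensive basement membranes. Integrins are the cell surface receptors that tie these networks to the cytoskeleton, and metalloproteinases cut the matrix and shed surface proteins.

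Per the labels, soil with a nominal 2.4 mg/kg of lindane, fresh or aged for 30 d, was stocked with adult worms, RNA came from body sections, and each of 5 conditions has 3 libraries. Each triplet has 2 names that differ. A code is either control or gives the age of the soil, 0d or 30d, before the days of exposure, 7d or 28d, as in 30d-28d. The treatment text names a condition displaced by one triplet: 0d-7d is then the start of the test with 0 d of exposure, 0d-28d and 30d-7d are 7 d and 28 d in fresh soil, and 30d-28d and control are 7 d and 28 d in soil aged 30 d. Groups are called here by code, all 10 pairs of triplets were compared so that the other naming can be read from the same values, and a direction against control holds only under the code. Under the code the control triplet has no soil age or exposure time of its own, so lindane, time in soil and soil age cannot be told apart in comparisons with it. Whether different worms gave the 3 libraries of a triplet is not stated, and p-values then cover the spread between libraries alone.

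The libraries held 13182058 to 28022746 reads, and a value in FPKM is a read number scaled by unigene length and library size, so that levels of different unigenes can be compared. The shares of reads on lists of tissue names differed between libraries, also within a triplet. Over the 15 libraries, digestive enzymes, as a list of 127 names, took 0.0162% to 6.47% of reads, with both ends in 0d-28d. Globins took 0.00216% to 2.03%, muscle contractile proteins 0.300% to 2.12%, germ and sperm proteins 0.0213% to 0.467% and nerve proteins 0.0338% to 0.0799%. The library 0d-28d 3 had the lowest digestive and globin shares and the highest germ and sperm share, and is the library with 90.8% of reads on the unigenes tested, against at least 97.8% in the others. The leading muscle contigs, a myosin essential light chain (contig_1202) and a tropomyosin (contig_2234), were highest in 0d-7d library 3, at 2761 and 1625 FPKM, and 30d-28d library 2, at 2087 and 1224 FPKM. The part of these differences in the results below was not tested, and in RNA from body sections fewer cells of a type and less RNA per cell cannot be told apart.

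**Figure D1:**
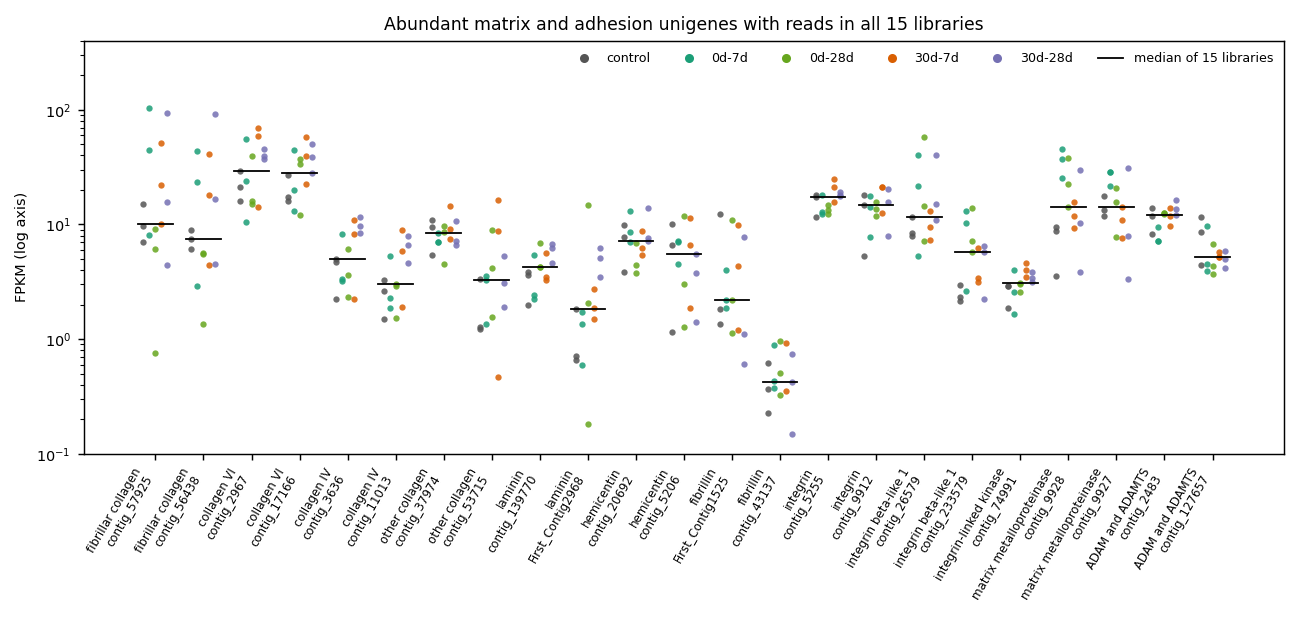
FPKM (log axis) of up to 2 abundant contigs of each of 12 classes with reads in all 15 libraries, 1 point per library coloured by triplet, with the median of 15 libraries as a bar; First_Contig4785, far above the others in 4 libraries, is left out. Collagens VI and integrin beta contig_5255 sit highest by median, and the fibrillar contig_57925 spreads from 0.761 to 103.5 FPKM.

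Most matrix transcripts were of low or moderate abundance. The median over the 133 members of the mean level was 1.90 FPKM, 40 members had a mean of at least 5 FPKM and 44 were under 1 FPKM. Reads occurred in all 15 libraries for 60 members, and 46 members were seen in 10 libraries or fewer. The filter on low counts kept 98 members, and none of the 35 others had a mean above 6.20 FPKM.

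Type VI collagens, which in vertebrates form beaded microfibrils next to cells, were together the most abundant collagens in the median library, at a summed 116.7 FPKM, and fibrillar collagens followed at 81.5 FPKM. The collagen alpha-6(VI) contig_2967 had the highest mean of any collagen. It stood at 16.0, 21.1 and 29.1 FPKM in control libraries 1 to 3, at 24.1, 10.6 and 55.7 in 0d-7d, at 39.2, 14.97 and 15.9 in 0d-28d, at 59.5, 14.3 and 69.8 in 30d-7d, then at 37.2, 45.3 and 39.5 in 30d-28d. The 30d-28d libraries were alike and lay above all 3 controls, while the other triplets each spread across the control range. The difference of 30d-28d from control, 40.7 ± 4.15 against 22.1 ± 6.59 FPKM (SD, n = 3), was 1.06 on the log2 scale (SE 0.683) and did not pass (edgeR, adjusted p = 1). A second alpha-6(VI) contig, contig_17166, ranged from 12.2 to 57.6 FPKM, and its 30d-28d libraries at 50.0, 39.0 and 28.1 FPKM also lay above its controls at 16.2, 17.4 and 26.7 FPKM. An alpha-5(VI) contig, contig_13609, showed no such order, with 5.02 FPKM in 30d-28d library 3 beside 50.9 FPKM in library 2. Another alpha-5(VI) name, First_Contig4214, came from 1 library, with 3932 reads and 92.9 FPKM in 0d-7d library 2 and at most 0.037 FPKM in the 14 others.

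Fibrillar collagens varied more between libraries than most matrix classes. Among the members with reads in all 15 libraries, the highest level was a median of 26.8 times the lowest for the fibrillar class, against 6.72 times for such members as a whole, 4.34 times for type IV collagens and 7.66 times for all unigenes tested. The longest fibrillar contig, contig_57925 (6209 bases), had 14.96, 7.03 and 9.79 FPKM in control, 44.6, 8.11 and 103.5 in 0d-7d, 6.12, 0.761 and 9.11 in 0d-28d, 22.2, 9.996 and 50.9 in 30d-7d, then 4.41, 93.6 and 15.6 in 30d-28d. Each high triplet owed its mean to 1 or 2 libraries, and the 0d-7d, 30d-7d and 30d-28d libraries overlapped those of control. Against control the log2 differences were 2.39 (SE 1.24) for 0d-7d and 2.15 (SE 1.23) for 30d-28d, and neither passed (edgeR, adjusted p = 1 for both).

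The fibrillar contigs peaked in different libraries. contig_56438, with the same protein name as contig_57925, ran close to it in most libraries, with 92.4 FPKM in 30d-28d library 2 and 44.0 FPKM in 0d-7d library 1, and was well below it in 0d-7d library 3, at 23.3 FPKM. The 2 libraries in which contig_57925 was highest, 0d-7d library 3 and 30d-28d library 2, were also those with the highest muscle shares of reads, 1.82% and 2.12%. The short contigs contig_51558 and contig_51557 peaked in 0d-7d library 1, at 132.0 and 88.5 FPKM, and in the 0d-28d triplet had at most 1.96 and 2.17 FPKM, below every control library. A further group, contig_22357, contig_22358 and contig_43395, was highest in 0d-28d library 3, at 69.0, 51.9 and 37.5 FPKM. That is the library with 0.467% germ and sperm reads and 0.0162% digestive reads. Of the leading germ and sperm contigs, PIWI1 (First_Contig345) was high in it, at 288.5 FPKM. Outer dense fiber protein 3 (contig_3650) and sperm-associated antigen 6 (contig_589) were low in it, at 3.18 and 3.48 FPKM. The collagen alpha-2(I) contig First_Contig5377 and the fibrillar contig_75009 were steadier, within 1.74 to 16.0 and 3.25 to 14.7 FPKM.

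**Figure D2:**
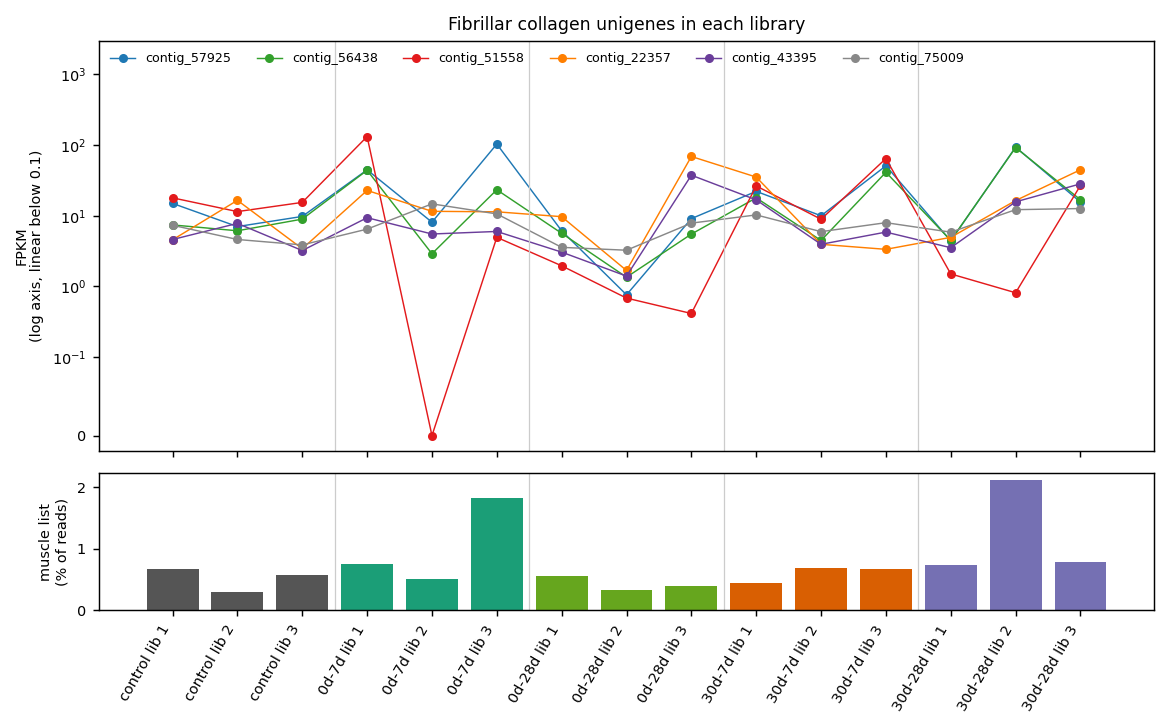
Above, FPKM of 6 of the 9 fibrillar collagen contigs in each of the 15 libraries (log axis, linear below 0.1, lines join libraries only for legibility); below, the percent of reads on muscle contractile names, coloured by triplet. Peaks fall in different single libraries for different contigs, such as 0d-7d library 1 for contig_51558 (132.0 FPKM), 0d-28d library 3 for contig_22357 (69.0 FPKM) and 30d-28d library 2 for contig_56438 (92.4 FPKM).

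Basement membrane collagen held 1 of the members in which 30d-28d stood wholly above control, 0d-7d and 0d-28d, though not above 30d-7d. The type IV contig_3636 had 4.72, 2.22 and 5.0 FPKM in control, 8.19, 3.24 and 3.36 in 0d-7d, 3.61, 2.31 and 6.09 in 0d-28d, 10.9, 2.25 and 8.23 in 30d-7d, then 8.44, 11.7 and 9.61 in 30d-28d. Every 30d-28d library lay above every library of control, 0d-7d and 0d-28d, and the 30d-7d libraries spread from 2.25 to 10.9 FPKM. The mean was 9.91 ± 1.64 FPKM in 30d-28d and 3.98 ± 1.53 in control (SD, n = 3), a log2 difference of 1.56 (SE 0.564) that did not pass over all unigenes tested (edgeR, adjusted p = 1).

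The alpha-1(IV) contig_11013 (3669 bases) had 6.67, 7.89 and 4.58 FPKM in 30d-28d and 2.65, 1.49 and 3.27 FPKM in control, a log2 difference of 1.61 (SE 0.595; edgeR, adjusted p = 1). The alpha-2(IV) contigs contig_36207 and Second_Contig98 ranged less widely, within 1.53 to 3.69 and 1.03 to 3.53 FPKM. For contig_36207 the 0d-7d libraries, at 2.12, 1.53 and 2.04 FPKM, lay wholly below those of 0d-28d, 30d-7d and 30d-28d, and 62.2% of its variance lay between triplets. In animals alpha-1 and alpha-2 chains are built into the same trimer. contig_453364 and contig_453363, both named alpha-1(IV), were a separate case, with 0d-28d library 3 at 21.1 and 15.9 FPKM and none of the 14 other libraries above 0.532 and 0.126 FPKM. The low contig_28490, an alpha-2(IV) name, had 5.86 and 3.38 FPKM in control libraries 1 and 2, 1.32 in 30d-7d library 1 and at most 0.048 in the 12 others, with 0 in control library 3.

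Laminins are the cross-shaped trimers that organize basement membranes. The beta-4 contig_139770, highest of them by mean, had 1.999, 3.60 and 3.84 FPKM in control and 6.81, 4.61 and 6.19 in 30d-28d, with a log2 difference of 0.93 (SE 0.424; edgeR, adjusted p = 1). These groups did not overlap, and 0d-28d at 6.86, 4.29 and 4.28 FPKM also lay above control. The alpha-like First_Contig2968 had both its lowest and its highest level in 0d-28d, with 0.181 FPKM in library 2 and 14.9 FPKM in library 3, with 3.49, 6.26 and 5.12 FPKM in 30d-28d above 0.659, 1.83 and 0.715 in control. The alpha-2 contig First_Contig954 (9053 bases) stayed between 0.752 and 1.86 FPKM in 14 libraries and reached 3.28 FPKM in 0d-28d library 3. The log2 difference between 0d-28d and control was 1.29 (SE 0.462; edgeR, adjusted p = 0.591), with 0d-28d libraries 1 and 2 at 0.992 and 1.14 FPKM and control at most 0.943 FPKM.

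Hemicentins are large immunoglobulin-rich proteins that in nematodes anchor tissues across basement membranes. First_Contig4785, with this name, was by far the most abundant member, at 6227 FPKM in control library 2, 5606 in 30d-7d library 1, 3608 in 30d-28d library 3 and 1489 in 0d-7d library 2. In the 11 other libraries it did not exceed 3.10 FPKM. The 4 libraries belong to 4 different triplets, and the contig raised the share of reads on all members to as much as 1.93% there, from 0.0976% in control library 1. By share of reads, none of the lists for muscle, digestion, globins, germ cells and nerve set these 4 libraries apart from the others. Among the leading nerve contigs, those of one name came closer and another did not. LYamide/FDSIG neuropeptide contig_13546 had 395.5 FPKM in control library 2, 230.2 in 30d-7d library 1 and 418.7 in 30d-28d library 3. It had only 109.6 in 0d-7d library 2, and at most 119.2 outside the 4. contig_98370, of the same name, had 250.4, 161.7, 313.3 and 86.7 FPKM in them and at most 100.7 outside. The pedal peptide contig_3095 went the other way. It had 87.1, 62.1, 68.4 and 52.9 FPKM in them, and 143.2 and 202.9 in 0d-28d libraries 1 and 2.

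Some other transcripts had the same 4 libraries in common. Apart from tenascin-R and the agrins contig_399852 and First_Contig3997, they were picked after their values were seen. Tenascin-R (First_Contig5376), a glycoprotein known from vertebrate nerve tissue, had 18.4, 13.9, 18.9 and 5.83 FPKM in them, but 0d-28d libraries 2 and 3 also held 5.65 and 9.04 FPKM. Collagen alpha-1(XII) contig_294184, whose vertebrate counterpart sits on fibril surfaces, had 11.6, 5.58, 8.46 and 3.67 FPKM and at most 0.175 elsewhere. A trio of contigs named agrin, a heparan sulfate proteoglycan that clusters receptors at nerve-muscle contacts, followed the same libraries although their name is outside the rule. The agrin contig_399852 had 760.6, 454.2, 434.5 and 1455 FPKM there and at most 0.166 elsewhere, First_Contig3997 had at least 329.6 and at most 0.391, and contig_372727 at least 116.6 and at most 0.171. Other abundant agrins did not follow them. First_Contig286, the agrin of highest mean, peaked at 1335 FPKM in 30d-7d library 3, outside the 4. contig_209071, with a higher mean than contig_372727, had 6.76 FPKM in 0d-7d library 2 and 127.9 in 30d-28d library 1.

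**Figure D3:**
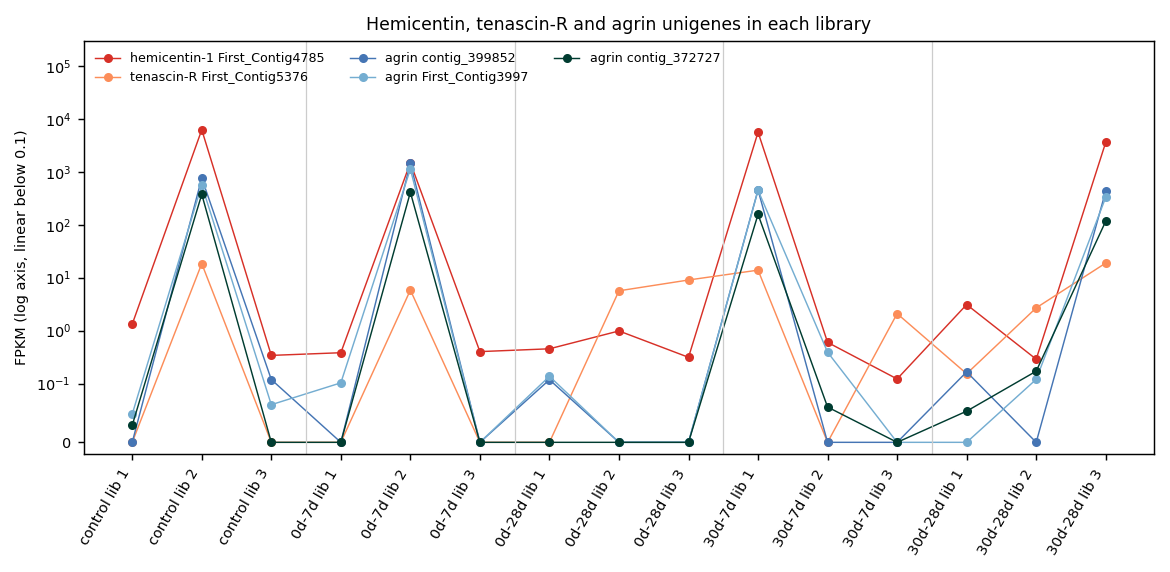
FPKM by library (log axis, linear below 0.1) of hemicentin First_Contig4785, tenascin-R First_Contig5376 and 3 agrin contigs. First_Contig4785 has at least 1489 FPKM in 4 libraries of 4 triplets and at most 3.10 FPKM in the other 11, and the agrins are high in the same 4.

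The remaining hemicentins were low and leaned to one library. contig_103796 had 1.28, 0.828 and 0.927 FPKM in control, 1.54, 1.21 and 1.09 in 0d-7d, 1.64, 0.980 and 0.737 in 0d-28d, 1.44, 0.926 and 1.29 in 30d-7d, then 1.78, 4.66 and 2.08 in 30d-28d. All 3 libraries of 30d-28d exceeded the 12 others, with library 2 far above its fellows. Against control the log2 difference was 1.68 (SE 0.451) and did not pass in edgeR (adjusted p = 1), while DESeq2 put it at 1.70 with an adjusted p of 0.0400. contig_100594 had 2.27, 4.57 and 2.45 FPKM in 30d-28d and 2.003, 1.17 and 1.45 in control (log2 difference 1.26, SE 0.427; edgeR, adjusted p = 1). The tests took in 13 of the 14 hemicentins. Of those tested other than First_Contig4785, 9 had their highest level in 30d-28d library 2, which is also the library richest in muscle reads. The most abundant hemicentin after First_Contig4785, contig_20692, ranged from 3.78 to 14.0 FPKM.

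Elastic fibre and linker proteins were thinly covered. Fibrillins, the scaffold of elastic microfibrils in vertebrates, peaked at a mean of 4.19 FPKM for First_Contig1525, which ran from 0.605 to 12.3 FPKM. A second one, contig_102812, had 0 reads in all 3 control libraries and 22, 9 and 29 reads in 0d-7d, 6, 12 and 0 in 0d-28d, 0, 7 and 15 in 30d-7d, then 0, 27 and 5 in 30d-28d. In 0d-7d every library held some, and in each of 0d-28d, 30d-7d and 30d-28d at least 1 library held none. Matrilin-2, an adaptor of the vertebrate matrix, was found as contig_189951 at 18.9 FPKM in 0d-28d library 2 and 61.8 in 30d-7d library 2, with no reads in the 13 others. A second matrilin-2, contig_65214, ran from 0 to 3.86 FPKM, and the tenascin-R contig_71225 did not exceed 1.67 FPKM.

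A contig named fibronectin type 3, contig_182233 (2262 bases), had the lowest p of all members over the 5 triplets. Fibronectin type 3 is a fold shared by many adhesion and signalling proteins, so the name does not place it in the matrix. It had 3.83, 3.46 and 5.31 FPKM in control, 0.125, 1.19 and 0.520 in 0d-7d, 1.32, 5.04 and 8.79 in 0d-28d, 0, 0.712 and 0 in 30d-7d, then 0.093, 0 and 0 in 30d-28d. Control and 0d-28d stood high and the other 3 triplets low, without overlap. In edgeR the F test gave an adjusted p of 0.714, and the log2 difference of 30d-28d from 0d-28d was -7.48 (SE 1.95, adjusted p = 0.775). DESeq2 called it in the test over 5 triplets (adjusted p = 0.0341), in 30d-28d against control (adjusted p = 0.00719) and against 0d-28d (adjusted p = 0.00224), and in aged against fresh soil (adjusted p = 0.0245). Of the other domain names, contig_76625 (an ankyrin repeat protein) ranged from 0.531 to 11.6 FPKM and contig_159674 from 0.396 to 6.94 FPKM. The more abundant collagen-binding name, contig_389004, whose match is an amoeba protein, ran from 0 to 8.39 FPKM, and the lower one, contig_393701, from 0 to 3.003 FPKM.

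The receptor contig of highest mean was also the steadiest member. Integrin beta contig_5255 (5814 bases) had 18.0, 11.7 and 17.5 FPKM in control, 18.1, 12.9 and 12.3 in 0d-7d, 14.7, 12.3 and 13.3 in 0d-28d, 21.2, 15.6 and 25.2 in 30d-7d, then 17.9, 19.1 and 17.7 in 30d-28d. Its highest library was 2.15 times its lowest, the smallest ratio among the members with reads in all 15 libraries. Triplets 30d-7d and 30d-28d lay wholly above 0d-28d and overlapped control, and the log2 difference of 30d-28d from 0d-28d was 0.36 (SE 0.310; edgeR, adjusted p = 0.948). A shorter integrin beta, contig_9912, ranged from 5.35 FPKM in control library 2 to 21.2 FPKM in 30d-7d library 2. Integrin-linked kinase (contig_74991), which binds the tails of beta integrins, ran from 1.67 to 4.61 FPKM, with 3.86, 3.17 and 3.43 FPKM in 30d-28d just above 2.90, 1.88 and 2.88 in control (log2 difference 0.51, SE 0.373; edgeR, adjusted p = 1). A further integrin beta, contig_44980, was a transcript of 1 library, with 15.02 FPKM in 0d-7d library 3 and at most 0.750 elsewhere. Integrin beta-like 1, a secreted protein that shares repeats with integrins, was most abundant as contig_26579, from 5.33 to 57.5 FPKM, and as contig_233579, from 2.16 to 14.0 FPKM.

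Matrix metalloproteinases summed to 43.7 to 105.1 FPKM with a median library of 82.3 FPKM, near the 81.5 FPKM of the fibrillar collagens. The membrane type MMP-14, which in vertebrates cuts fibrillar collagen at the cell surface, was highest as contig_9928, at 3.54, 8.76 and 9.59 FPKM in control and 37.2, 45.5 and 25.5 in 0d-7d. It had 22.6, 38.3 and 14.1 FPKM in 0d-28d, 9.24, 15.6 and 11.9 in 30d-7d, then 29.7, 10.4 and 3.84 in 30d-28d. Both fresh-soil triplets, as coded, lay wholly above control, and 0d-7d lay wholly above 30d-7d. The means of 36.1 ± 10.1 and 7.30 ± 3.28 FPKM (SD, n = 3) in 0d-7d and control differed by 2.09 on the log2 scale (SE 0.686), which did not pass (edgeR, adjusted p = 1). The similar-sized contig_9927 was also wholly above control in 0d-7d, with 28.9, 21.5 and 28.5 FPKM in 0d-7d and 11.9, 17.7 and 13.4 in control, a log2 difference of 0.67 (SE 0.671; edgeR, adjusted p = 1). Its 0d-28d libraries, at 15.7, 21.0 and 7.77 FPKM, overlapped control, and its highest level was 31.2 FPKM in 30d-28d library 1.

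The most abundant disintegrin proteases stayed within narrow ranges. ADAM10 (contig_2483), a general sheddase, ran from 7.22 to 16.4 FPKM, and contig_127657, a disintegrin protease, from 3.69 to 11.7 FPKM. By code, the log2 difference of ADAM10 between 28 d and 7 d was 0.63 (SE 0.225; edgeR, adjusted p = 0.722). ADAMTS1 (contig_6706), which in vertebrates trims proteoglycans, had 1.48, 3.95 and 3.74 FPKM in control and 3.32, 3.55 and 2.13 in 0d-7d. In the other triplets it had 8.13, 4.22 and 8.60 FPKM (0d-28d), 6.72, 5.37 and 7.20 (30d-7d), and 7.79, 7.52 and 7.03 (30d-28d). Each of the latter 9 libraries exceeded all 6 of the former. The differences from control were 1.23, 0.91 and 1.28 on the log2 scale and none passed (edgeR, lowest adjusted p = 0.591). ADAM12 (contig_24517) was found in some libraries only, at 1.37 to 23.8 FPKM in 6 of them and at most 0.080 in the other 9.

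Across the whole set, no member passed an edgeR quasi-likelihood test in any of 16 tests, adjusted over the 101090 unigenes tested. These were the F test over 5 triplets, 10 pairs, control and 0d-7d each against the 12 other libraries, soil age, duration and their interaction by code. Of all unigenes 0.000989% were called in the F test, that is 1 unigene, and 7 of 98 members had an unadjusted p under 0.05, against 6.07% of all unigenes tested. DESeq2 called 2 members in the F-type test (1.06% of all unigenes), 2 in 30d-28d against control (0.42%), 1 in 30d-28d against 0d-28d (0.609%), 1 in 30d-28d against 0d-7d (0.427%; contig_100594, adjusted p = 0.0447) and 1 in aged against fresh soil (0.508%), and 0 in the 11 other tests. In those 11 tests DESeq2 called 0.346% (0d-7d), 0.938% (0d-28d) and 0.325% (30d-7d) of all unigenes against control, 0.343% (30d-7d) and 0.957% (0d-28d) against 0d-7d, 0.333% in 30d-28d against 30d-7d and 0.576% in 30d-7d against 0d-28d. It called 0.37% in the 12 others against control, 0.351% in the 12 others against 0d-7d, 0.635% for duration and 0.507% for the interaction. limma on log2(FPKM + 1) called 0 members in each test, and of all unigenes 0.0043% in the F test and in the 12 others against control, 0.00344% in 0d-7d and 0d-28d against control, 0.00258% in 30d-7d and 30d-28d against control, 0.000861% in 0d-28d and the 12 others against 0d-7d, and 0 in the other 8. Of a member's variance on the log2 scale, a median of 28.6% lay between triplets, and for all unigenes tested it was 25.8%.

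In pairs with control, the members' median log2 difference was -0.05 in the pair with 0d-7d, 0.26 with 0d-28d, 0.10 with 30d-7d and 0.43 with 30d-28d, beside medians of all unigenes tested of -0.04, 0.00, -0.03 and -0.04. These comparisons share the control libraries. Positive values stood at 47, 60, 58 and 65 of 98 members, beside 47.7%, 50%, 48.2% and 47.4% of all unigenes tested. Members with an unadjusted edgeR p under 0.05 numbered 5 in 0d-7d (4.74% of all unigenes), 12 in 0d-28d (8.35%), 5 in 30d-7d (3.5%) but 15 in 30d-28d (4.31%), where 12 of the 15 were higher than control. The median for 30d-28d was 0.70 without control library 2 and 0.30 without 30d-28d library 2. The median for 0d-28d was 0.06 without 0d-28d library 3, and that for 30d-7d 0.21 without control library 2. The median for 0d-7d lay between -0.19 without 0d-7d library 1 and 0.15 without control library 2.

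**Figure D4:**
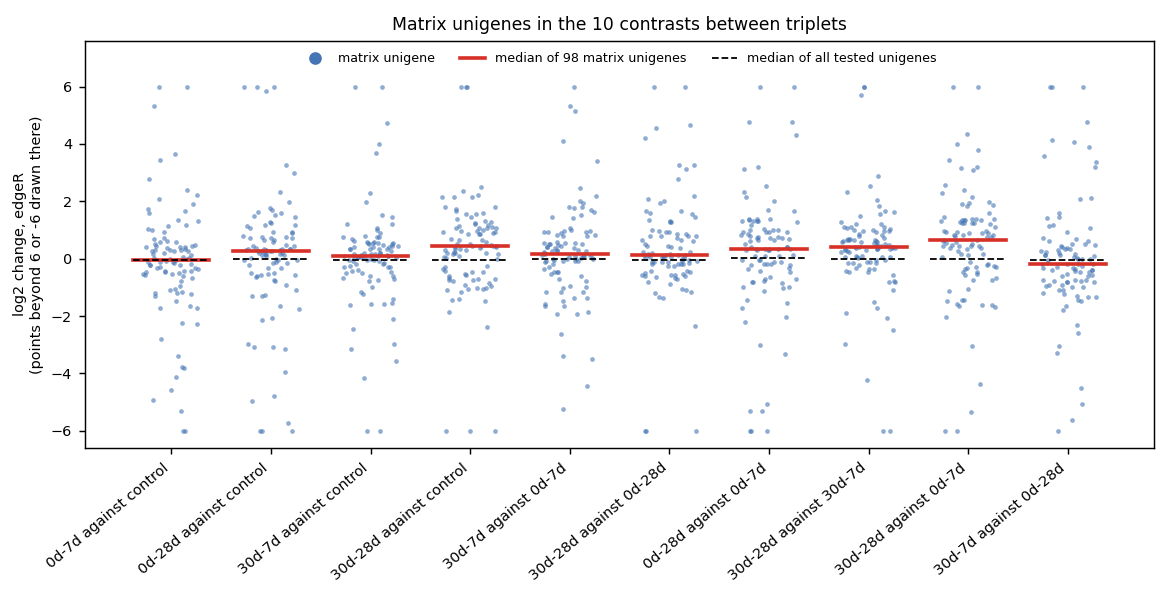
Log2 difference of each of the 98 tested members (points) in the 10 pairs of triplets, from the edgeR fit, with values beyond 6 or -6 drawn there; the solid line is the members' median and the dashed line that of all unigenes tested. In 30d-28d against control 65 of 98 members lie above 0 (47.4% of all unigenes tested), and in 0d-7d against control 47 do (47.7%).

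Members whose triplets did not overlap were also counted, over the same libraries. In 30d-28d, 14 of 98 members (14.3%) lay wholly above control, beside 4.61% of all unigenes tested, and 2 lay wholly below, beside 4.68%. The 14 were 3 laminins, 2 type IV collagens, 2 type VI collagens, 2 hemicentins, 1 other collagen, 1 fibrillin, 1 integrin, integrin-linked kinase and ADAMTS1. Muscle contractile proteins took 0.739%, 2.12% and 0.783% of reads in 30d-28d and 0.675%, 0.300% and 0.565% in control, which also did not overlap. Nerve proteins did not overlap either, by a narrow margin, with at least 0.0679% in 30d-28d and at most 0.0678% in control, and the part of these differences in the count was not tested. The leading muscle contigs taken singly did overlap. contig_1202 had 376.2 FPKM in 30d-28d library 3 and 655.5 in control library 1, and contig_2234 had 313.3 and 401. In the other triplets, members wholly above and below control numbered 3 and 3 in 0d-7d (4.5% and 4% of all unigenes), 7 and 5 in 0d-28d (5.09% and 5.66%) and 6 and 2 in 30d-7d (4.23% and 3.08%). The 5 members wholly below control in 0d-28d included the fibrillar contig_51558, contig_51557 and contig_56438.

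Soil age and duration were compared by code. At 28 d, 12 of 98 members lay wholly higher in aged soil (30d-28d) than in fresh soil (0d-28d), beside 4.82% of all unigenes, and 4 lower, beside 4.5%. The 12 included 3 hemicentins, 3 integrins and 2 type IV collagens, and the muscle shares of reads of these triplets did not overlap either, with 0.557%, 0.334% and 0.386% in 0d-28d. The leading muscle contig_1202 did overlap, at 376.2 FPKM in 30d-28d library 3 and 692.7 in 0d-28d library 1. Germ and sperm shares were wholly higher in 0d-28d, at 0.0719%, 0.0683% and 0.467%, than in each other triplet. The leading contigs of that list did not move together within 0d-28d. In its libraries 1 to 3, PIWI1 (First_Contig345) had 1.01, 1.32 and 288.5 FPKM. Outer dense fiber protein 3 (contig_3650) had 38.8, 27.15 and 3.18 FPKM there, and sperm-associated antigen 6 (contig_589) had 38.6, 31.1 and 3.48. An unadjusted edgeR p under 0.05 was seen in 9 members at 28 d (6.29% of all unigenes) and in 4 at 7 d (4.21%). At 7 d, 6 members were wholly higher in aged soil (4.62% of all unigenes) and 5 wholly lower (3.77%), the latter including MMP-14 contig_9928 and contig_9927. Between 7 d and 28 d, 6 members were wholly higher and 3 lower in fresh soil (4.82% and 6.27%), and 3 higher and 0 lower in aged soil (3.06% and 4.96%). Members at an unadjusted p under 0.05 between the times numbered 11 in fresh soil (9.09%) and 3 in aged soil (3.09%). The median log2 difference of the members was 0.34 for aged against fresh soil, with 9 members at an unadjusted edgeR p under 0.05 (5.95% of all unigenes), and 0.28 for 28 d against 7 d, with 17 (6.91%). The soil-age median was 0.14 without 30d-28d library 2, 0.17 without 30d-28d library 3, 0.18 without 30d-7d library 1 and 0.20 without 30d-7d library 3, and the duration median was 0.06 without 0d-28d library 3. For the interaction it was 0.01, with 4 members at an unadjusted p under 0.05 (5.6%), and it ran from -0.22 without 0d-7d library 1 to 0.40 without 0d-28d library 3.

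Under the other naming the 0d-7d triplet is the start of the test. Against it 30d-28d had 13 of 98 members wholly higher (4.59% of all unigenes) and 5 lower (5.86%), with a median log2 difference of 0.64, or 0.62 with triplets of 0 reads set at the floor of 3 counts over the triplet, and 12 members at an unadjusted edgeR p under 0.05 (5.32%). Leaving out 30d-28d library 3 gave a median of 0.29, and leaving out its library 2 gave 0.43. The nerve shares of reads did not overlap in this pair, at 0.0787%, 0.0679% and 0.0798% in 30d-28d and 0.0651%, 0.0644% and 0.0338% in 0d-7d, and their part in the count was not tested. Hemicentin contig_103796, hemicentin contig_100594 and type IV collagen contig_3636 were the 3 members wholly higher in 30d-28d than in control, 0d-7d and 0d-28d alike. Comparing 30d-7d with 0d-28d, which this naming makes 28 d and 7 d in fresh soil, 6 members were wholly higher (5.62%) and 2 lower (3.37%), with 5 at an unadjusted p under 0.05 (6.28%), and the higher ones included fibrillar contig_57925 and contig_51558 and integrin beta contig_5255. The 12 other libraries together gave 9 members at an unadjusted p under 0.05 against control (5.34% of all unigenes) and 9 against 0d-7d (6.65%).

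**Figure D5:**
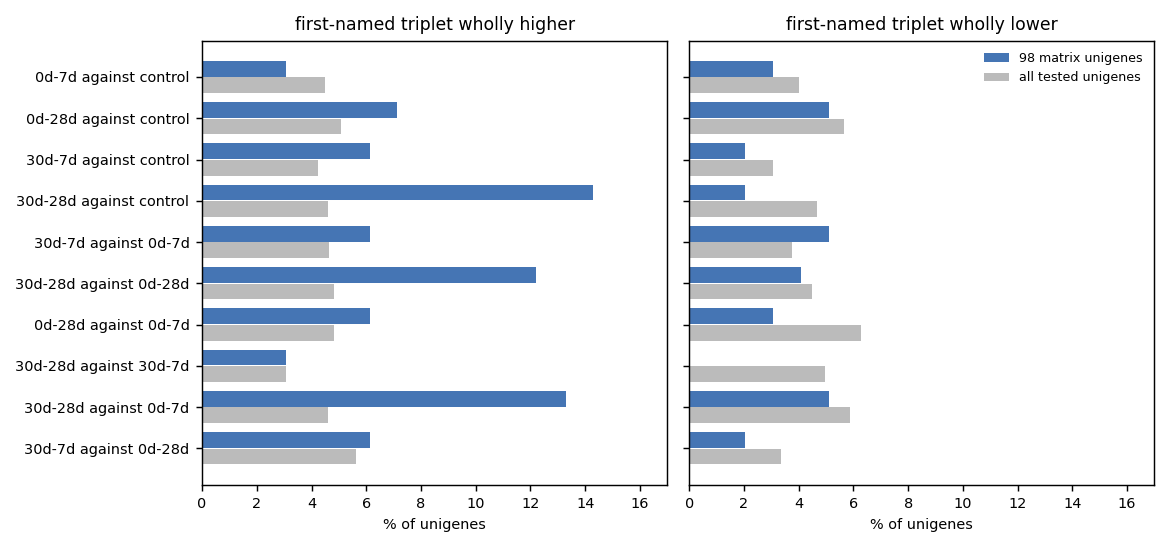
Percent of the 98 tested members (blue bars) and of all 101090 unigenes tested (grey bars) whose triplets did not overlap in each of 10 pairs, with the first-named triplet higher at left and lower at right. Members stand above the background in the higher direction for 30d-28d against control (14.3% and 4.61%), 0d-28d and 0d-7d. In 30d-28d against 30d-7d both shares are 3.06%. Some other pairs also lie above it by less, such as 0d-28d against control (7.14% and 5.09%).

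Single libraries weighed on these counts. The library 30d-28d 2 was the highest of 15 for 13 of the 60 members with reads everywhere, where it is the highest for 4.07% of all such unigenes. Among these members 0d-28d library 2 was the lowest for 12, and its share over all such unigenes was not computed. Without 30d-28d library 2, 16 of 98 members (16.3%) lay wholly above control beside 9.39% of all unigenes, where a triplet is compared with 2 libraries, and 13 (13.3%) lay wholly above 0d-28d beside 9.28%. This library also had the highest muscle share of reads, 2.12%.

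Genes of matrix processing and adhesion with names outside the rule (among them agrin, thrombospondin, heparan sulfate proteoglycan, peroxidasin and prolyl 4-hydroxylase names) gave 72 tested unigenes. None passed in edgeR in any of the 16 tests, with 7 at an unadjusted p under 0.05 in the F test, beside 6.07% of all unigenes. In 30d-28d, 11 of the 72 lay wholly above control and 1 below (4.61% and 4.68% of all unigenes). Further, 12 lay wholly above and 2 below 0d-28d (4.82% and 4.5%), and 13 above and 1 below 0d-7d (4.59% and 5.86%). The median log2 difference of 30d-28d from control was 0.39, with 52 of 72 positive, beside 47.4% of all unigenes tested. The most abundant, agrin First_Contig286, had its lowest level, 0.974 FPKM, in 0d-28d library 1 and its highest, 1335 FPKM, in 30d-7d library 3.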

How the data were processed

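Per the file headers, the authors deposited 1 table with a whole-number read count and an FPKM value (per unigene length and library size) for each of 241846 unigenes and 15 libraries. The sources used here do not name the assembler, the aligner or how reads that match several unigenes were counted. The count test was edgeR 4.0.16 (quasi-likelihood F, filterByExpr with minimum count 10 and minimum total 15, TMM scaling) in 1 fit of 5 triplets over all 15 libraries. The fit had 10 residual degrees of freedom and a common biological coefficient of variation of 0.923. All tests are two-sided, with a threshold of 0.05 on the adjusted p. The edgeR p-values were Benjamini-Hochberg adjusted over all 101090 unigenes tested, and those of limma over 116152. DESeq2 gave a p-value for 97223 or 97224 unigenes, depending on the test, and its own adjusted p was used. Standard errors are the log2 difference divided by the square root of F. Alternatives used DESeq2 1.42.0 and limma 3.58.1 on log2(FPKM + 1) with mean FPKM of at least 0.5. The fit was checked on simulated counts, with pass conditions set only at a spread smaller than that of these data. That check does not show how large a difference the tests could detect here.

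Members, classes and lists were chosen with earlier results of these data known, and their patterns were adjusted after the protein names had been read. Named members are the most abundant of each class, those with the lowest p in each test, and the 3 with a mean of at least 5 FPKM and the highest ratio of highest to median library. Others named were chosen after their values were seen. Same-numbered libraries were not paired by the labels. Sequences were not analysed here.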

Additional observations from a re-analysis of the deposited data

How the results depend on the processing

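The count of 0 members called in each of the 16 edgeR tests stayed 0 with DESeq2 size factors, with no filter, with at least 10 counts in 8 libraries, with robust estimation, with the compared libraries alone, with limma, and, over all 15 libraries left out in turn, from 0 to 0. DESeq2 called 2 members in the test over 5 triplets, 2 in 30d-28d against control, and 1 each in 30d-28d against 0d-28d, 30d-28d against 0d-7d and aged against fresh soil. The cause was not tested. With the replicate number as a block, 0 members were called in each test. Numbers did not pair libraries: deviations from triplet means correlated at a mean of -0.0576 over 30 same-numbered pairs (range -0.332 to 0.320) and 0.0289 over 60 others, and 3 of 15 libraries were closest to one of their own number.

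Leaving out 1 library turned 3 differences, each resting on that library. Without 0d-7d library 3, integrin beta contig_44980 went from -5.24 to 0.23 in 30d-7d against 0d-7d and from -5.05 to 0.43 in the 12 others against 0d-7d. Without 30d-7d library 2, the interaction of contig_182233 went from -6.10 to 0.11. Over all libraries left out in turn, the lowest values of these 3 were -5.82, -5.61 and -9.29. The median over members in 0d-28d against 0d-7d was 0.35, or 0 without 0d-28d library 3 and -0.08 with limma on log2(FPKM + 0.1), and in 30d-28d against 0d-7d 0.64, or 0.22 with log2(FPKM + 1). In counts added after seeing the data, members wholly above control in 30d-28d numbered 16 (without its library 2) to 25 (without its library 1) with 1 of 6 libraries left out, beside 8.04% to 10.4% of all unigenes, and those above 0d-28d 13 to 20, beside 8.73% to 10.5%. Members of low count limit the precision, and 35 of 133 could not be tested.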
